A study of Mus musculus with 9 samples.

Results

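The baseline transcriptome of thymic epithelial cells (TEC) was described from the 4 vehicle libraries of a series of 9. The members were chosen by treatment alone: the libraries labelled as control, and no measured value entered the choice. They came from young male wild-type mice that had received PBS into the thymus 10 days before collection. No other allele or agent is given in the labels. The other 5 libraries, from mice given 1 µg of recombinant amphiregulin, were not compared here. TEC had been sorted from thymi dissociated with enzymes, and bulk 3′-end libraries were made by MARS-seq, in which a unique molecular identifier (UMI) marks each captured RNA molecule. The labels do not say how many mice went into a library, so the spread between libraries may be biological or technical.

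TEC form the stroma in which T cells develop. Cortical TEC commit progenitors to the T lineage and positively select thymocytes, and medullary TEC display proteins of other organs to delete self-reactive T cells. Aire, a chromatin-associated regulator, and Fezf2, a zinc-finger transcription factor, drive much of this tissue-restricted expression in the medulla. Each tissue-restricted gene is switched on in a small share of medullary TEC at a time, and some medullary cells go on to resemble tuft, neuroendocrine, muscle, microfold, keratinocyte or other peripheral cells, known as mimetic cells.

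Each library held between 1804171 and 2118524 UMIs, spread over a table of 15080 genes. Levels are given as CPM, counts scaled to a common library total after TMM scaling of the library sizes, and are not divided by transcript length because a 3′-end method counts about 1 tag per molecule. A count of 3, the upper limit that a count of 0 allows, corresponded to 1.41 to 1.65 CPM and covers counting error only. Pairs of libraries correlated at a Pearson r of 0.947 to 0.964 across the 13284 genes with a mean of at least 5 counts, a description across genes that share libraries. Vehicle replicate 4 stood farthest from the others: its 3 pairs had a chi-square of 3.82 to 5.14 per degree of freedom, against 2.54 to 3.51 for pairs among replicates 1 to 3. No pair came close to repeating 1 library within counting noise.

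Spread between libraries was asked of every gene. Each gene's 4 counts were compared with the counts expected from its mean and the TMM-scaled library sizes by a chi-square test against Poisson noise, with Benjamini-Hochberg adjustment over all 13284 genes tested. Of these, 2611 genes (19.7%) had an adjusted p under 0.05 and are said below to spread beyond counting noise. More counts make a given spread easier to see, so counts of list members that passed are set beside the share of all genes of like level.

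Most of the table was seen in every library, yet a small part of the genes carried much of the RNA. Of the 15080 genes, 14390 had at least 1 UMI in all 4 libraries, 15063 had 1 in any of them, and 17 were at 0 in all 4. A total of 411 to 479 genes held 50% of the UMIs of a library, and the 100 most abundant held 29.8% ± 0.791 (SD, n = 4). The 134 genes with a mean of at least 1000 CPM held 33.8% of the UMIs, the 1690 genes of at least 100 CPM held 70.4%, and the 9257 genes of at least 10 CPM held 97.5%. The median gene lay at 16.3 CPM. The top of the ranking was shared: 89 genes were among the 100 most abundant in every library, out of 111 that were so in any. Protein-coding genes took 97.7% of the UMIs, and cytosolic ribosomal proteins took 13.4% to 14.1% of each library.

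**Figure D1:**
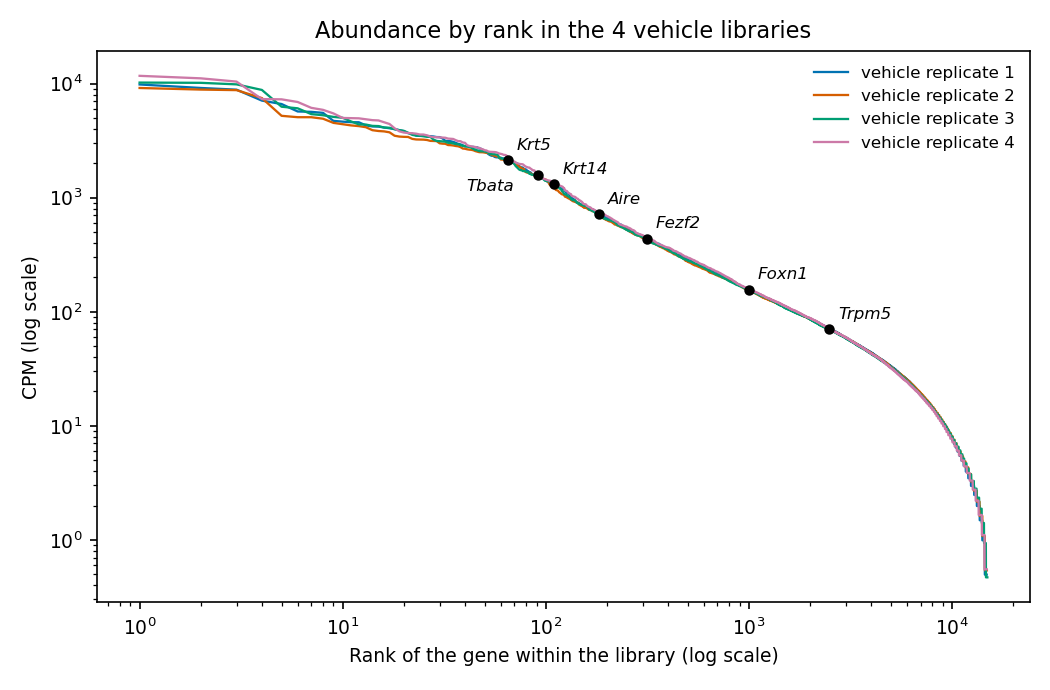
CPM of each gene against its rank within the library, both on log scales, with 1 line for each of the 4 vehicle libraries and black points for the mean of the 7 marker genes. The lines lie close together over the whole range, and the markers span ranks 65 (Krt5) to 2491 (Trpm5).

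Antigen presentation led the ranking. H2-Ab1 (chromosome 17, 34257689 to 34269419, GRCm38), a chain of the MHC class II molecule that presents peptides to CD4+ thymocytes, was the most abundant gene, at 8865, 8779, 10176 and 11720 CPM in vehicle replicates 1 to 4. Cd74, the invariant chain that escorts class II molecules, followed at 9173, 8879, 10225 and 11141 CPM. H2-Aa, the partner chain of H2-Ab1, stood at 7107, 7476, 8814 and 10432 CPM. In all of them replicates 3 and 4 were the highest. The 10 class II genes took 3.12%, 3.17%, 3.64% and 4.10% of the UMIs, and 8 of the 10 tested spread beyond counting noise. Those were the 8 above 100 CPM, a level at which 57.6% of all genes passed. B2m, the invariant chain of MHC class I, went the other way in replicate 4. It reached 9842, 9167 and 9864 CPM in replicates 1 to 3, and 6141 CPM in replicate 4. The class I heavy chains H2-K1 and H2-D1 were highest in that same library, at 4990 and 4583 CPM. Of the 10 listed class I genes 8 were highest in replicate 4, as were 1322 of all 3505 genes of at least 50 CPM. B2m, which made up 43.5% of the list, and Nlrc5 were instead lowest there.

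The sequence in front of a class II gene is shown because class II genes head the ranking and most of those searched share a short element. The most abundant of them, H2-Ab1 and Cd74, had no entry in the promoter source used here and were not searched. The box CCAAT, searched on both strands in the 250 bases before the start, was found in 6 of the 7 class II genes with an entry in RefSeq's promoter table (85.7%), against 35.9% of the 11891 genes of the table with an entry and 34.5% of all 27025 promoters. The match is a description of letters, not of a bound factor. The window of H2-Aa (chr17:34287824-34288073, minus strand, GRCm38.p6, given 5′ to 3′ along the gene) has the box in capitals on its reverse strand.
H2-Aa: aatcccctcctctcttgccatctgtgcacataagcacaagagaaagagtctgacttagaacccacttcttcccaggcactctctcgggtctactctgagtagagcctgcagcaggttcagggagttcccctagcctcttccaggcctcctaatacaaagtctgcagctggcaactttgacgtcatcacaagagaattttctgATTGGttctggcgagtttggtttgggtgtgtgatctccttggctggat

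Heat shock and immediate early genes stood beside antigen presentation at the top. Hspb1, a small heat shock protein, had 6632, 5081, 6282 and 7327 CPM in replicates 1 to 4. Hspa1a, an inducible Hsp70 chaperone, had 5665, 5083, 6083 and 5896 CPM. Its near-identical neighbour Hspa1b had 5548, 4410, 5114 and 7292 CPM. Counts of that pair are uncertain as single genes, since reads matching both can be split or dropped. Fos, a subunit of the AP-1 transcription factor, reached 2849 to 3301 CPM, and Fosb 964 to 1542 CPM. The 20 genes listed for the early response to dissociation took 3.63%, 3.42%, 3.24% and 3.98% of the UMIs, and 18 of the 20 spread beyond counting noise. Of the 10 above 1000 CPM all passed, against 95.5% of all genes of that level, and of the 8 at 100 to 1000 CPM all passed, against 54.3%. Nfkbia, an inhibitor of NF-kappaB, was steadier, at 3030 to 3479 CPM. The tissue was dissociated with enzymes before sorting, and the part of that step in these levels was not tested.

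The windows of the Hsp70 pair are shown to let a reader see how alike the genes are at their starts. They differ at 3 of 250 bases. Each carries 1 copy of GAANNTTC, a core of the heat shock element that reads the same on both strands, in capitals. It was present in 3 of 15 genes of the early response list with an entry (20%), in 4.99% of the genes of the table and in 6.79% of all promoters. The matches of the near-identical pair are not independent of each other. Hspa1a lies at chr17:34972157-34972406 and Hspa1b at chr17:34959239-34959488, both on the minus strand of GRCm38.p6.
Hspa1a: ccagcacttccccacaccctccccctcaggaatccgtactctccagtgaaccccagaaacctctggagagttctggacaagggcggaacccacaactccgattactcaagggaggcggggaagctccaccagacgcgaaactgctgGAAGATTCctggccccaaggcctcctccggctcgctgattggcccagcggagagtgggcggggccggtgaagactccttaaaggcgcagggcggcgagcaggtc
Hspa1b: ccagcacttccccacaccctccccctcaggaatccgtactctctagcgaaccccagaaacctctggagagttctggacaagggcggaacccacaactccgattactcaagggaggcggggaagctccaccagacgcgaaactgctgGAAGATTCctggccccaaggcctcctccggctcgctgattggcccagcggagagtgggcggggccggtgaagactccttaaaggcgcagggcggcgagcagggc

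Interferon-induced genes were measured at high levels in every vehicle library. Cxcl10, a chemokine induced by interferon, was among the 20 most abundant genes that are neither ribosomal nor predicted, at 3831, 3497, 4266 and 4874 CPM in replicates 1 to 4. Isg15, a ubiquitin-like protein conjugated during the interferon response, split the libraries, with 1254 and 1295 CPM in replicates 1 and 4 and 794 and 881 CPM in replicates 2 and 3. Ifit1, which binds foreign RNA, was closer together, at 450 to 526 CPM. Gbp2, an interferon-inducible GTPase, hardly differed, with 260 to 270 CPM. The 20 listed genes all had over 3 counts in every library, had a median level of 224 CPM and together took 0.991%, 0.884%, 0.951% and 1.05% of the UMIs. Of the 20, 11 spread beyond counting noise. At 100 to 1000 CPM it was 7 of 12, close to the 54.3% of all genes of that level.

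The core of the interferon-stimulated response element, taken as 2 copies of GAAA parted by any 2 bases, was found on either strand in 9 of 16 interferon genes with an entry (56.2%), against 2.56% of the genes of the table and 3.05% of all promoters. The window of Isg15 (chr4:156200819-156201068, minus strand, GRCm38.p6) is shown because 3 overlapping copies run together there, in capitals.
Isg15: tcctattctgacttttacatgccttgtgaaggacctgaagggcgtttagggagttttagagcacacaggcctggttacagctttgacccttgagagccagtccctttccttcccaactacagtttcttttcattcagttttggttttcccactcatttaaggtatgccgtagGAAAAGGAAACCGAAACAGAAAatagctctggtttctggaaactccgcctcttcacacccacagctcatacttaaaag

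The 7 TEC markers fell into a fixed order, and no neighbours in that order overlapped between libraries. Krt5 (chromosome 15, 101707070 to 101712898), a basal keratin of medullary TEC, came first with 2246, 1881, 2176 and 2238 CPM in replicates 1 to 4. Tbata (chromosome 10, 61171954 to 61188841), a regulator of TEC proliferation, had 1708, 1551, 1557 and 1542 CPM. Krt14 (chromosome 11, 100203162 to 100207548), the partner of Krt5, had 1334, 1216, 1370 and 1355 CPM. These 3 varied little, with CVs of 8.07%, 4.97% and 5.33%.

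The medullary regulators lay lower and set replicate 1 apart. Aire (chromosome 10, 78030022 to 78043610) had 489 CPM in replicate 1 and 784, 761 and 830 CPM in replicates 2 to 4. Fezf2 (chromosome 14, 12342094 to 12348189) had 349 CPM in replicate 1 and 464, 466 and 469 CPM in the others. Foxn1 (chromosome 11, 78357577 to 78386558), the master transcription factor of TEC, had 175, 164 and 166 CPM in replicates 1 to 3 and 117 CPM in replicate 4. Trpm5 (chromosome 7, 143069153 to 143094642), the taste channel that marks tuft cells, had 58.4, 77.8, 61.4 and 83.2 CPM. Each of the 7 spread beyond counting noise, against 41.3% of all genes of at least 50 CPM. At 1000 CPM or more, where Krt5, Tbata and Krt14 lie, 95.5% of all genes passed, so their passing is usual for that level. At 100 to 1000 CPM, where Aire, Fezf2 and Foxn1 lie, it was 54.3%, and at 50 to 100 CPM, where Trpm5 lies, 26.2%. A share of 83.5% of all genes had a lower mean than Trpm5, the lowest of the 7.

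Lists of TEC states were then summed. In bulk samples fewer cells of a type and less RNA per cell cannot be told apart. The list for CCL21 and keratin 5/14 medullary TEC took 1.34% ± 0.0656 of the UMIs (SD, n = 4), with Krt17 at 4219 to 4761 CPM and Ifitm3, a membrane restriction factor, at 2376 to 3502 CPM. Ccl21a is not analysed here. The Aire-stage list took 0.379% in replicate 1 and 0.477%, 0.496% and 0.444% in replicates 2 to 4. Ubd, a ubiquitin-like modifier of mature medullary TEC, was its most abundant gene, at 1674, 1876, 2018 and 1613 CPM. The cortical list was highest where the Aire-stage list was lowest, with 0.386% in replicate 1 and 0.320%, 0.301% and 0.301% in replicates 2 to 4. Of its 12 genes 8 were highest in replicate 1, and 2, 1 and 1 in replicates 2 to 4. Over all 3505 genes of at least 50 CPM, 930 were highest in replicate 1. Prss16, the thymus-specific serine protease, had 777 CPM in replicate 1 and 358 to 481 CPM in the others, and Cxcl12, a chemokine that retains progenitors, had 474 CPM there and 302 to 397 CPM in the others. Ccl25, which attracts thymocytes, had 681 CPM in replicate 1 and 518 to 594 CPM elsewhere. Psmb11, the thymoproteasome subunit that defines cortical TEC, was low throughout, at 8.44 to 16.3 CPM.

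The label was checked against general epithelial genes and markers of other cells. Epcam, the sort marker of most TEC protocols, lay at 191 to 236 CPM, Krt8 at 1322 to 1532 CPM and Krt18 at 2501 to 2815 CPM, and all 15 genes of the thymic epithelial list had over 3 counts in every library. Of 16 thymocyte and T cell genes, 13 were in the table and 8 had over 3 counts in every library. Together they took 0.0110% to 0.0149% of the UMIs, with Ptprc, the common leukocyte antigen, at 5.51 to 13.0 CPM and Cd3d at 7.50 to 12.4 CPM. The dendritic and myeloid list took 0.0382% to 0.0448%, of which Lyz2, a lysozyme, made up 63.3% with 219 to 279 CPM, and Itgax lay at 1.08 to 3.28 CPM. The endothelial list took 0.0110% to 0.0149% and the B cell list 0.00356% to 0.00486%. Alas2, the erythroid gene analysed here, lay at 2.97 to 10.3 CPM.

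Fibroblast genes differed most between libraries among the lists of other cells that held more than 1 gene. The 10 of 11 listed genes in the table took 0.0916%, 0.0829%, 0.0423% and 0.0299% of the UMIs in replicates 1 to 4, and none of the 10 was at 0 in every library. Dcn, the matrix proteoglycan decorin, had 723, 597, 302 and 234 CPM and made up 75.6% of the list. Col3a1, a fibrillar collagen, had 68.3, 65.4, 26.3 and 7.17 CPM, and Col1a2 had 53.5, 67.0, 21.6 and 4.96 CPM. Col1a1 stayed between 0.938 and 4.46 CPM, and Fbn1, which encodes fibrillin, lay at 31.2 to 38.4 CPM with no order like that of Dcn. Their part in the differences between libraries described below was not tested.

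**Figure D2:**
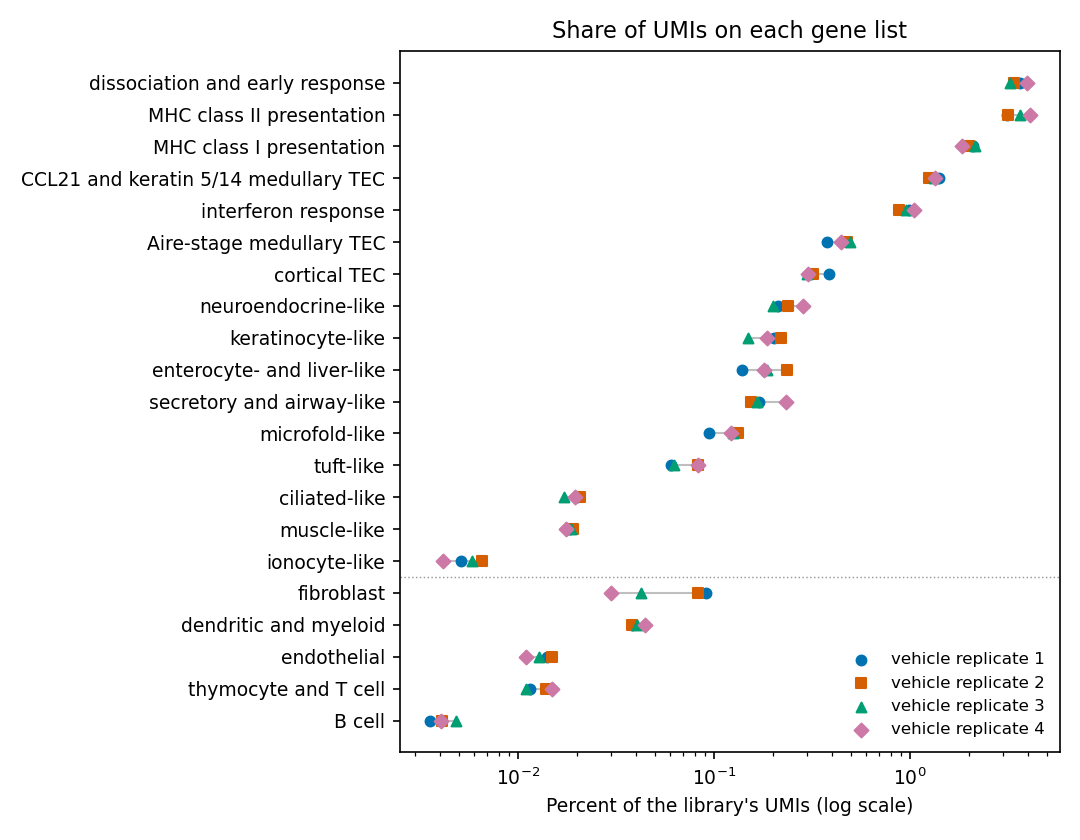
Percent of each vehicle library's UMIs, on a log scale, that fell on each gene list, with 1 marker for each of the 4 libraries and a grey line over their range. Lists of TEC and mimetic states stand above the dotted line and lists of other cell types below it. The fibroblast list spans 0.0299% to 0.0916%, the widest of those shown, and the class II list spans 3.12% to 4.10%.

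Mimetic cell genes were measured in every library, and in some lists 1 gene held most of the UMIs. The neuroendocrine-like list took 0.234% ± 0.0381 of the UMIs, and 83.8% of that was Chga, the granule protein chromogranin A, at 1793, 1957, 1620 and 2503 CPM. Insm1, a transcription factor of endocrine cells, lay at 78.7 to 119 CPM and Neurod1 at 1.49 to 4.96 CPM. The enterocyte- and liver-like list took 0.139%, 0.235%, 0.188% and 0.181%, mostly Reg3g, an antibacterial lectin of gut epithelium, with 1104, 1845, 1386 and 1409 CPM. Hnf4a, a nuclear receptor of gut and liver, lay at 0.469 to 2.76 CPM and Hnf4g at 4.41 to 8.65 CPM, while Cdx1, an intestinal homeobox factor, reached 104 to 240 CPM. Replicate 1 was the lowest library for Reg3g and Cdx1.

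Tuft-like genes formed 0.0606%, 0.0828%, 0.0629% and 0.0826% of the UMIs. In 8 of the 14 genes, Trpm5 among them, replicates 2 and 4 lay above replicates 1 and 3, and 3 genes were lowest in replicate 4. That order was read from these same values, and its share over all genes was not taken. The count therefore cannot show a trait particular to tuft-like genes. Lrmp had 110, 166, 117 and 201 CPM, and Avil, an actin-bundling protein, had 104, 118, 95.7 and 130 CPM. Gnb3, a G protein subunit of taste signalling, had 85.2, 102, 75.0 and 132 CPM. Gnat3, the G protein alpha subunit gustducin, went against them, with 10.4, 27.0, 11.7 and 7.72 CPM. Pou2f3, the factor that specifies tuft cells, lay at only 2.48 to 7.03 CPM.

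The other mimetic lists differed in how evenly they were spread. The microfold-like list took 0.119% ± 0.0169, with Spib, a transcription factor of microfold cells, at 227 to 376 CPM and Gp2, their receptor for bacteria, at 100 to 169 CPM. The keratinocyte-like list took 0.190% ± 0.0308, with Sprr1a, a cornified envelope protein, at 472 to 617 CPM. Sbsn, a suprabasal secreted protein, had 353, 346, 188 and 310 CPM, and Krtdap, a keratinocyte differentiation peptide, had 333, 338, 180 and 159 CPM. The secretory and airway-like list took 0.235% in replicate 4 and 0.155% to 0.169% in the others. Its member Bpifa1 had 941 CPM in replicate 4 and 272 to 346 CPM in the others. Of the 12 genes 3 were highest in replicate 4, as were 1322 of all 3505 genes of at least 50 CPM. In all, 11 of 13 keratinocyte-like and 8 of 12 secretory genes spread beyond counting noise, against 19.7% of all genes tested. At 100 to 1000 CPM it was 6 of 6 and 4 of 5, against 54.3% of all genes, and at 10 to 50 CPM 3 of 5 and 1 of 3, against 14%. Muscle-like genes took 0.0176% to 0.0190%, with Des, a muscle filament protein, at 36.9 to 75.0 CPM and Myog, a myogenic factor, at 6.49 to 16.5 CPM. Ciliated-like genes took 0.0172% to 0.0208%, and 0 of the 9 spread beyond counting noise by the chi-square test (0 also at an unadjusted p under 0.05). Of these, 8 lie under 50 CPM, where 14% or fewer of all genes passed in the bins from 5 CPM up, so the count says little about evenness. Ionocyte-like genes took 0.00417% to 0.00654%, with Foxi1, their defining factor, at 4.46 to 5.51 CPM.

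Genes of distant organs were measured at low but countable levels. The 7 organ lists named 102 genes, of which 70 were in the table, 48 had over 3 counts in every library and 32 had a mean of at least 10 CPM. Together they took 0.467%, 0.511%, 0.458% and 0.412% of the UMIs, and their median level was 8.47 CPM, against 16.3 CPM over all genes. Pth, parathyroid hormone, dominated them, with 2763, 2842, 2194 and 2106 CPM, which placed it at rank 53 of the whole table. Gcm2, the factor that specifies the parathyroid gland, lay at 7.03 to 9.73 CPM and Casr, the calcium receptor of that gland, at 18.7 to 28.1 CPM. A list of parathyroid genes was chosen after seeing the data, and of its 8 genes 7 were in the table with a median of 23.8 CPM. Chga, which made up 83.8% of the neuroendocrine-like list, is on this list too.

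Hormones, milk proteins and liver proteins varied widely around that level. Sst, the hormone somatostatin, had 301 and 299 CPM in replicates 2 and 3 and 76.3 and 79.4 CPM in replicates 1 and 4. Ins2, an insulin gene, had 6.93, 29.7, 11.7 and 29.2 CPM. Csn2, a milk casein, had 204 to 250 CPM, and Lpo, lactoperoxidase, 298 to 390 CPM, so neither showed a library far from the rest. Apoa1, a plasma lipoprotein of liver and gut, had 55.5 to 95.4 CPM, whereas Alb, serum albumin, had 18.8, 2.70, 7.03 and 4.96 CPM. Lens, testis and retina genes were scarcer. Cryaa, a lens crystallin, had 16.8 to 31.4 CPM, Sag, the retinal arrestin, 1.88 to 9.37 CPM, and Prm1, a sperm protamine, 1.98 to 6.61 CPM. Tnp1, a sperm transition protein, was at 0 in all 4 libraries, which allows up to 1.41 to 1.65 CPM.

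The starts of these genes differed in base composition from the rest of the table, a feature that did not enter the choice of any list. Among 56 organ-list genes with a promoter entry the median ratio of observed to expected CpG was 0.205, against 0.680 over all 11891 genes. Of the 56, 26.8% carried the letters TATAAA, searched on the gene's own strand only, in the 250 bases before the start. That compares with 5.49% of the genes of the table and 8.13% of all promoters. The same letters were found in 12 of 30 keratin genes (40%) and 6 of 10 keratinocyte-like genes (60%). The windows of Aire, Reg3g and Bpifa1 are shown because these belong to the regulator of tissue-restricted expression and to 2 of the abundant tissue-restricted products, and each has the letters, in capitals, with the first letter 27 or 29 bases before the start. Aire lies at chr10:78043611-78043860 and Reg3g at chr6:78468875-78469124, both on the minus strand, and Bpifa1, an airway surface protein, at chr2:154142630-154142879 on the plus strand of GRCm38.p6.
Aire: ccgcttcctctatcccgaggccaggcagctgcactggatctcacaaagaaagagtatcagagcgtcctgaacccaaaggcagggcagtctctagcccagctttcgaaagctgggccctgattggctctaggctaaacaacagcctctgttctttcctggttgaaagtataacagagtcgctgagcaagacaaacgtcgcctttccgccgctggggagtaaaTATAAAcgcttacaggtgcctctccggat
Reg3g: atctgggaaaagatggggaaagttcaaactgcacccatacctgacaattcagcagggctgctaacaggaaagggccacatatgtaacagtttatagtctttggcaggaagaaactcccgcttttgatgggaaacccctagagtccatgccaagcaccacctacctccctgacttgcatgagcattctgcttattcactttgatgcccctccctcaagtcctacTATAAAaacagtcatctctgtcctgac
Bpifa1: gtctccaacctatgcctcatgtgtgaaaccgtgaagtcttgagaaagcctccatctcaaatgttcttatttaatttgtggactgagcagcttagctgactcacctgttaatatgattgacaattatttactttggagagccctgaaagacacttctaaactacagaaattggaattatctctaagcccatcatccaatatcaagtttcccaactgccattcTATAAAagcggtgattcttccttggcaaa

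Cell cycle genes were low. The 13 S phase genes in the table took 0.0370% to 0.0442% of the UMIs, and 0 of the 12 tested spread beyond counting noise by the chi-square test (1 at an unadjusted p under 0.05), against 14% of all genes of 10 to 50 CPM, where 8 of the 12 lie. The G2 and M phase list was less even in its share, with 0.0104% in replicate 1 and 0.0161% to 0.0163% in the others. Of its 11 tested genes 2 passed, close to the 19.7% of all genes tested. Both were among the 5 at 10 to 50 CPM, where 14% of all genes passed. Ube2c, a mitotic ubiquitin-conjugating enzyme, had 13.9 CPM in replicate 1 and 27.7 to 35.7 CPM elsewhere. Pcna, the replication clamp, lay at 104 to 122 CPM and Mcm7, a helicase subunit, at 70.3 to 76.9 CPM. Mki67, a marker of proliferating cells, lay at 18.2 to 26.7 CPM and Top2a, a topoisomerase of dividing cells, at 21.8 to 25.4 CPM. The labelled male sex was met by Ddx3y, a Y-linked helicase, at 78.7, 74.6, 69.4 and 38.6 CPM, and Eif2s3y, also Y-linked, at 26.5 to 37.1 CPM. Xist is not analysed here.

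Spread between the libraries was then described over all genes. The count of 2611 genes that spread beyond counting noise fell most without vehicle replicate 4, to 1312 of 13363 genes. Without replicates 1, 2 or 3 it was 1807, 2286 and 2212. Leaving out any library also leaves the test fewer counts per gene. Among genes of at least 50 CPM, 1449 of 3505 (41.3%) passed. The spread beyond counting noise is given as an excess CV, the SD left after subtracting the Poisson variance, as a percent of the mean. Its median was 9.07% for genes of at least 50 CPM, and the common biological coefficient of variation of edgeR was 0.152. A highest library at least 2-fold over the lowest was found in 112 of these 3505 genes (3.20%).

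Some genes hardly differed. Nudc, a dynein-associated protein, had 149 to 150 CPM in all 4 libraries, and Sdc1, the heparan sulfate proteoglycan syndecan 1, 132 to 136 CPM. Rpl10, a ribosomal protein, had 1246 to 1292 CPM, and Eif3k, a translation initiation factor subunit, 442 to 460 CPM. Of 1670 genes of at least 100 CPM with a named symbol, 183 had no variance beyond counting noise. With 1 group of 4 this shows only that these libraries did not separate for them.

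At the other end, single genes broke away in single libraries. Gapdh (chromosome 6, 125161715 to 125166467), a glycolytic enzyme used widely as a reference gene, had 26 UMIs or 12.9 CPM in replicate 1, against 720, 754 and 1042 CPM in replicates 2 to 4. Actg1 (chromosome 11, 120345690 to 120348542), cytoplasmic gamma actin, had 444 CPM in replicate 3 and 69.8, 65.9 and 44.6 CPM in replicates 1, 2 and 4. Dhx9, an RNA helicase, had 138 CPM in replicate 4 and 51.1 to 55.1 CPM in the others. Prdx1, a peroxide-reducing enzyme, had 75.5 CPM in replicate 4 and 174 to 197 CPM elsewhere. For Gapdh, Actg1 and Dhx9 the distance from the nearest other library was 5.70, 2.65 and 1.31 on the log2 scale. Actb, the partner of Actg1, did not share its pattern, with 4597, 4152, 4106 and 3676 CPM. Only 13 genes of at least 50 CPM had a library that stood 1 or more on the log2 scale from its nearest neighbour. Gapdh and Actg1 have processed copies elsewhere in the genome, and the sources used here do not give how multiply matching reads were counted.

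The other widely spread genes included several secreted and matrix products. Mucl2, a mucin-like protein, had 261 CPM in replicate 2 and 22 to 47.4 CPM in the others. Bpifa1 had 941 CPM in replicate 4 and 272 to 346 CPM elsewhere, and Apoc1, an apolipoprotein, had 228 CPM in replicate 1 and 46.5 to 65.6 CPM elsewhere. S100a9, a subunit of calprotectin, had 754 CPM in replicate 2 and 199 to 389 CPM elsewhere. Rarres2, the chemoattractant chemerin, had 244, 130, 77.4 and 35.3 CPM, and Aebp1, a matrix-associated protein, 150, 79.4, 55.8 and 29.8 CPM. Those orders of libraries resemble that of Dcn, and the fibroblast list took 0.0916%, 0.0829%, 0.0423% and 0.0299% in the same libraries. Its part in them was not tested. Peptide genes were low in 1 library each: Cck, cholecystokinin, had 26.2 CPM in replicate 1 and 60.5 to 63.8 CPM in the others, and Pyy, peptide YY, had 43.8 CPM in replicate 2 and 86.5 to 96.6 CPM elsewhere. Tac2, which encodes neurokinin B, had 24.9 CPM in replicate 2 and 54.9 to 64.5 CPM elsewhere.

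**Figure D3:**
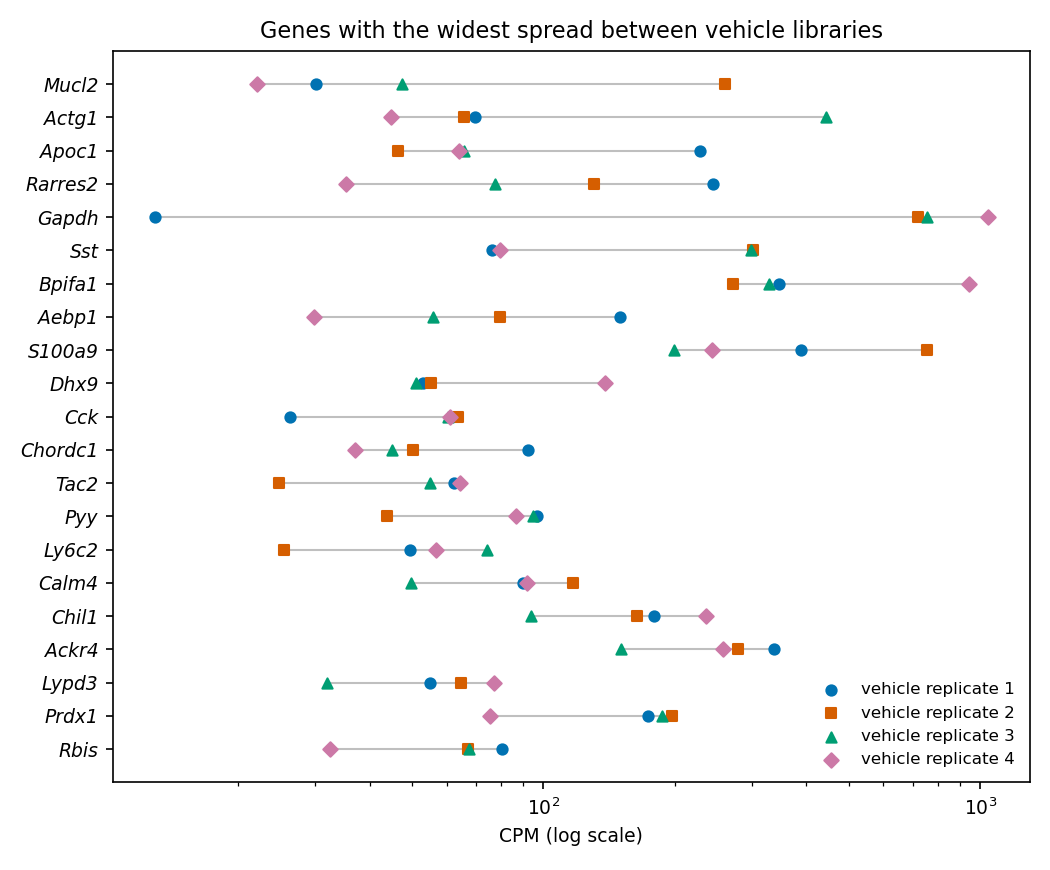
CPM on a log scale in each of the 4 vehicle libraries for the 10 genes of largest excess CV (mean of at least 50 CPM) and for the genes farthest from the other libraries, with a grey line over the range of each gene. Gapdh spans 12.9 to 1042 CPM with replicate 1 alone at the low end, and Actg1 spans 44.6 to 444 CPM with replicate 3 alone at the high end.

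Tissue-restricted genes passed the spread test at a higher rate than all genes of like abundance, a count given without a test of the difference. The lists of mimetic cells and organs and the families of tissue-restricted genes, 23 in all, held 302 genes of the table that together took 1.69% ± 0.107 of the UMIs (SD, n = 4). Of these, 241 had the mean of 5 counts needed for the test, and 121 (50.2%) spread beyond counting noise, against 19.7% of all genes tested. Without vehicle replicate 4 it was 88 of 246, against 9.82% of all genes. Because abundance changes how often a gene passes, the genes were compared within bins of mean level. At 5 to 10 CPM, 20 of 47 tissue-restricted genes passed, against 9.67% of 2130 genes. At 10 to 50 CPM, 47 of 97 passed (48.5%), against 14% of 5752 genes. At 50 to 100 CPM, 14 of 18 passed, against 26.2% of 1815 genes, and at 100 CPM or more, 29 of 32 passed, against 57.6% of 1690 genes. The median excess CV was 26.6% for tissue-restricted genes of 10 to 50 CPM and 10.1% for all genes of that level, and 19.6% and 9.43% at 100 CPM or more. Of the ribosomal, proteasome and respiratory chain genes at 100 CPM or more, 116 of 171 passed (67.8%), and their median excess CV was 6.91%.

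**Figure D4:**
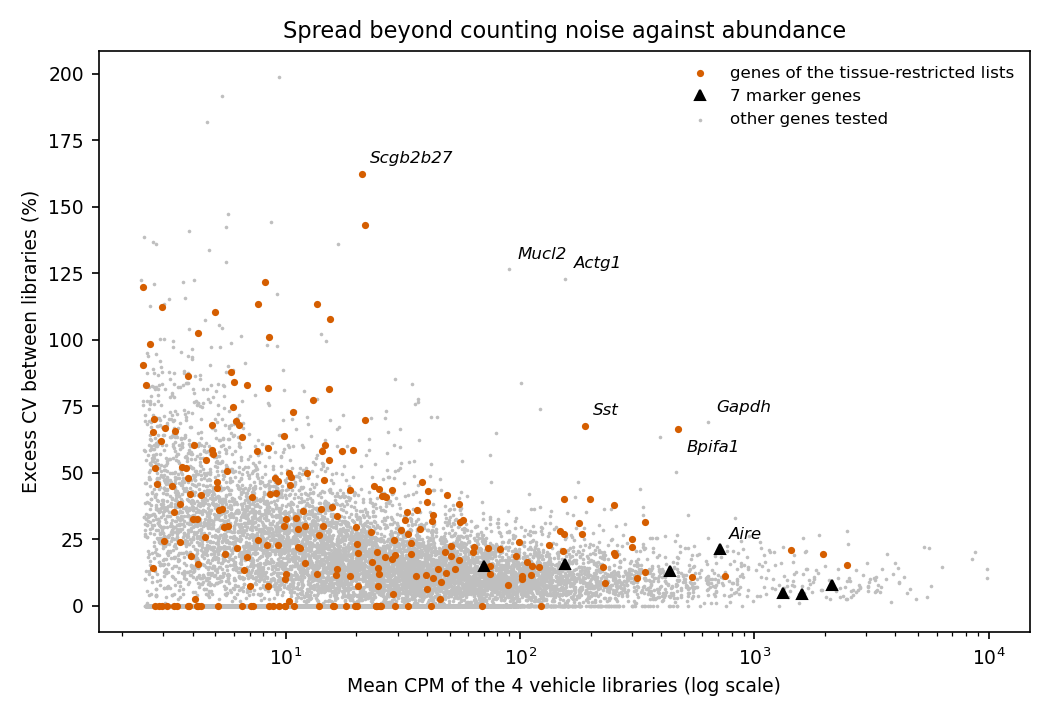
Excess CV between the 4 vehicle libraries in percent against mean CPM on a log scale, for each of the 13284 genes tested, with genes of the tissue-restricted lists in orange, other genes in grey and the 7 markers as black triangles. Points at 0 have no variance beyond counting noise. Many orange points lie above the bulk of the grey points of like abundance, up to 162% for Scgb2b27, and the 7 markers lie between 4.63% (Tbata) and 21.3% (Aire).

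The widest of them, by excess CV at a mean of at least 10 CPM, differed severalfold between libraries. Scgb2b27 (chromosome 7, 34011921 to 34013942), a secretoglobin of the androgen-binding protein family, had 146, 20, 3 and 0 UMIs in replicates 1 to 4, or 72.3, 10.8, 1.41 and 0 CPM. Scgb1b27 (chromosome 7, 34021483 to 34022881), its neighbour, had 67.8, 16.2, 2.81 and 0.551 CPM in the same libraries. Amelx, the enamel protein amelogenin, had 36.6 CPM in replicate 1 and 2.81 to 8.65 CPM in the others. Klk10, a kallikrein protease, had 33.1 CPM in replicate 4 and 3.78 to 15.4 CPM in the others, and Apoa2, an apolipoprotein of liver, had 44.5 CPM in replicate 3 and 10.3 to 18.2 CPM elsewhere. Sprr2d, a small proline-rich gene, had 28.1 CPM in replicate 2 and 4.41 to 11.9 CPM elsewhere. Each replicate was thus the highest for some of these genes.

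Neighbouring genes were then compared for the library in which they peaked. Among 10240 pairs of adjacent tested genes no more than 100 kb apart, 27.5% had their highest CPM in the same library. Among the 497 pairs in which both genes spread beyond counting noise, 188 (37.8%) did, and among the 32 pairs in which both also had an excess CV of at least 50%, 18 (56.2%) did. With pairs whose symbols share their first 3 letters left out, the share was 35.9% of 393 pairs. Inside the tissue-restricted lists 27 of 62 pairs (43.5%) peaked together, and 14 of the 25 pairs in which both genes passed (56%). Pairs that share a gene are not independent, and no test was made. No share was taken for passing genes paired regardless of position, so the part of position in these shares was not tested.

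The cornified envelope genes of chromosome 3 show how such runs look; they were chosen after their values were seen. From Lce1e (92707401 to 92709074) to Lce1j (92788840 to 92790514), 5 late cornified envelope genes in a row were all highest in replicate 3. Lce1h had 5.45, 9.73, 26.7 and 17.1 CPM and Lce1j 15.4, 9.73, 32.8 and 11.6 CPM. The Lce3 genes further along the same chromosome were highest in replicate 4: Lce3b had 0.495, 15.1, 7.03 and 39.1 CPM, and Lce3c 0, 4.86, 5.16 and 20.4 CPM. The small proline-rich genes Sprr2d, Sprr2e and Sprr2f were all highest in replicate 2, with Sprr2d at 11.9, 28.1, 7.97 and 4.41 CPM. Members of these families resemble each other in sequence, so their counts are uncertain as single genes. A hair keratin pair on chromosome 11, of different families, also peaked together: Krtap17-1, a keratin-associated protein, had 18.3 CPM in replicate 3 and 0.540 to 2.76 CPM elsewhere, and Krt33b had 15.9 CPM there and 3.78 to 7.17 CPM elsewhere.

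**Figure D5:**
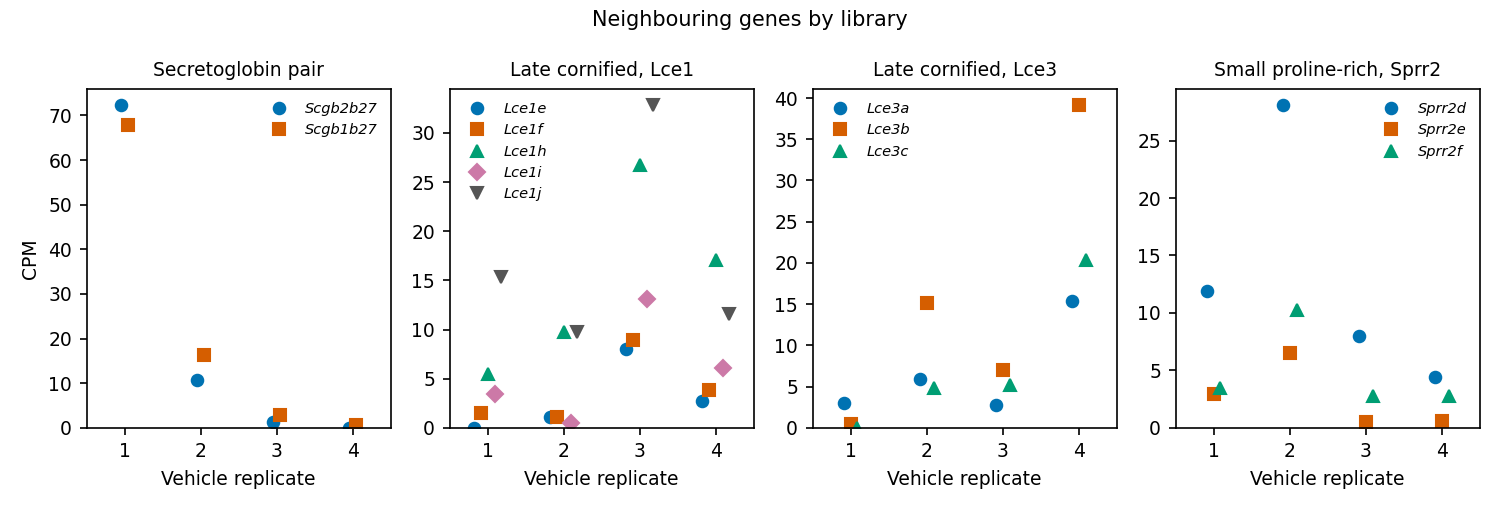
CPM of neighbouring genes in each of the 4 vehicle libraries, in 4 panels, with 1 symbol per gene. The secretoglobin pair is highest in replicate 1, the run from Lce1e to Lce1j in replicate 3, the Lce3 run in replicate 4 and the Sprr2 run in replicate 2.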

How the data were processed

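Per the labels' protocols, TEC were sorted from enzymatically dissociated thymi and libraries were made by MARS-seq. Per the submitters' processing notes the build was mm10, and DESeq2, HTSeq, STAR 2.5.2b, cutadapt and bcl2fastq were among the tools, with no roles given. The deposited table held raw UMI counts, which were used here. The authors' normalised values in the same deposited table are a signal equal to the counts divided by size factors of 0.946 to 1.12 for these libraries. Their deposited regularised log2 values stand beside these, and neither was used for results. Every row reached at least 6 counts in some library of the series, so low rows had been removed before deposit, and it held no mitochondrial rows.

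Groups came from the sample titles. CPM used TMM factors (edgeR 4.0.16, R 4.3.3). Spread was tested by a chi-square of the counts against Poisson noise with 3 degrees of freedom, over genes with a mean of at least 5 counts. The test was checked on simulated data. A single group allowed no test between groups, and p-values measure only the spread between these libraries. Excess CV and shares of UMIs were computed with Python 3.11.15 and pandas 2.3.3. Correlations used log2 CPM with a prior count of 2. Positions came from GENCODE on GRCm38, to which 14784 of 15080 rows matched 1 gene, and promoters from RefSeq. Named genes were the 7 markers, the 20 most abundant genes that are not ribosomal or predicted, up to 4 genes per list with the first 2 markers of other cell types, the 10 widest and 10 narrowest in excess CV, and the 5 farthest genes per library, of which the text gives a part. Members, lists and tests were chosen with earlier results of these data known. Alternatives were RLE or total-count scaling, other filters, DESeq2 1.42.0 dispersions, thinning to the smallest library, leaving out ribosomal genes and leaving out each library.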

Additional observations from a re-analysis of the deposited data

Results flagged for a closer look

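Within the group of 4 libraries, results are given here in which the highest or lowest library stood alone, its gap to the nearest library, over the whole range, being above Dixon's 95% critical value. Chance alone gives this in about 1 in 20 groups of 4. It occurred in 15 of the 243 genes named by the rule and in 4 of the 47 lists. Among all 3505 genes of at least 50 CPM it occurred in 206 (5.88%). Some of the named genes had been picked for wide spread or for a library far from the others, which favours a lone library. Actg1, Apoc1, Bpifa1, Cck, Dhx9 and Mucl2 were among those picked in this way. The count of named genes therefore cannot show whether lone libraries were more common than chance gives.

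Vehicle replicate 1 stood alone for 7 genes. Fezf2 was low there at 349 CPM, Cck at 26.2 CPM and Ftl1, the ferritin light chain, at 2799 CPM. Tbata was high there at 1708 CPM, Krt18 at 2815 CPM, Apoc1 at 228 CPM and Col1a1 at 4.46 CPM. Vehicle replicate 2 stood alone for Mucl2, high at 261 CPM, and Cyp2f2, a cytochrome P450 of airway club cells, low at 175 CPM. Vehicle replicate 3 stood alone for Actg1, high at 444 CPM. Vehicle replicate 4 stood alone for 5 genes: Bpifa1 at 941 CPM, Wfdc2, a secreted epithelial protease inhibitor, at 881 CPM, Dhx9 at 138 CPM and Myog at 16.5 CPM were high, and Cftr, the chloride channel of ionocytes, was low at 5.51 CPM.

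Among lists, the mammary and salivary secreted proteins were high in replicate 3 at 0.101% of the UMIs. In replicate 1 the skin, hair and tooth list was high at 0.00865%, while the retina and lens list was low at 0.00371% and the G2 and M phase list at 0.0104%. Of the 9 skin, hair and tooth genes in the table only 2 were highest in replicate 1. The enamel gene Amelx had 74 UMIs there and 6 to 16 in the others. The retina and lens list took 0.00430% to 0.00439% in the others, and whether its gap exceeds counting error was not tested.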

How the results depend on the processing

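The count of 2611 genes that spread beyond counting noise was 2610 with RLE size factors, 2575 with total counts, 2368 with a minimum mean of 20 counts and 2650 with no filter. Leaving out each library in turn gave 1312 to 2286 genes, the lowest without vehicle replicate 4. The biological coefficient of variation of 0.152 lay between 0.129 and 0.166 without each library, and the square root of DESeq2's median gene-wise dispersion was 0.0855. Without ribosomal protein genes the median share over the lists was 0.0944% in place of 0.0819%, and 31 of 45 lists moved by more than their SD. The lowest correlation between libraries was 0.935 with a prior count of 0.5, against 0.947. The cause of these shifts was not tested, except that leaving out ribosomal genes lowers every total. The 14390 genes detected in every library became 12979 with at least 3 UMIs. The order of the 7 markers was kept under all 6 settings run. The settings for tissue-restricted genes and neighbouring pairs were chosen after seeing the data: the 121 tissue-restricted genes were 88 to 127 in them, and 188 pairs were 177 with total counts. No paired analysis was possible because a single group was described and no groups were compared. At this depth a gene under about 1.65 CPM cannot be told from 0 in a single library.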

Other observations

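Other gene families of restricted expression were also measured. Of 27 annotated kallikrein genes 25 were in the table, with Klk1 of salivary gland at 207 to 315 CPM and Klk7 of skin at 62.2 to 107 CPM. Of 93 cytochrome P450 genes 47 were in the table, led by Cyp2a5 at 283 to 358 CPM. Of 70 defensin genes 17 were in the table, and Defb6 had 76.8, 49.7, 39.4 and 28.1 CPM in replicates 1 to 4. Of 1106 olfactory receptor genes only 2 were in the table, Olfr1136 and Olfr411, with 0 to 3.47 CPM. Keratins together took 1.38% ± 0.00718 of the UMIs (SD, n = 4), although 21 of the 36 keratins tested spread beyond counting noise, against 19.7% of all genes tested. At 10 to 50 CPM it was 6 of 11 keratins, against 14% of all genes.

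Areg, the gene of the ligand given to the mice of the other group, lay at 5.40 to 14.5 CPM in the vehicle libraries, and Egfr, its receptor, at 37.5 to 51.5 CPM. Both were chosen for mention after their values were seen.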
